A study of Homo sapiens with 6 samples.

Results

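Messenger RNA levels of 9 genes of the PARP (ADP-ribosyltransferase) family and of DTX3L were followed in DU-145 cells, an established human prostate cancer line. The 10 genes are PARP9, DTX3L, PARP10, PARP11, PARP12, ZC3HAV1 (also called PARP13 or ZAP), PARP14, PARP8, PARP1 and TIPARP (also called PARP7). They were found by exact symbol in a table of 60662 genes, each on 1 row, and all 10 passed the filter on low counts that left 24695 genes for testing. Every culture carried a stably introduced, tetracycline-inducible short hairpin RNA against MUC1. The DOX-negative group was 3 cultures given vehicle for 7 days, and the DOX-positive group was 3 cultures given doxycycline (DOX) for 7 days. Both groups then received interferon-gamma (IFN-gamma), 10 ng/ml, over 24 hours. Unstimulated cells, and cells given DOX with another hairpin, were not analysed here. A difference between the groups therefore measures DOX and the induced hairpin together, in 1 line, in cells that had all received IFN-gamma, and it does not measure induction by IFN-gamma.

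PARP enzymes take ADP-ribose from NAD and attach it to proteins or nucleic acids. PARP1 builds long chains at DNA breaks, and most other family members attach single units. Some, such as ZC3HAV1, have lost the activity and work by binding RNA or ADP-ribose. Several members, with PARP9 and its ubiquitin ligase partner DTX3L among them, are classical interferon-stimulated genes, whose promoters are bound by STAT and IRF factors.

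Total counts were 87739734 to 150921436 reads per library. Levels are counts scaled to library size (CPM) after TMM normalization, a correction for library composition, and fold changes come from edgeR's quasi-likelihood test with Benjamini-Hochberg adjustment over all 24695 genes. MUC1, the hairpin's target, was between 20.37 and 22.21 CPM in DOX-negative and between 1.308 and 1.527 CPM in DOX-positive cultures, as the labels would have it. Of 6 epithelial markers KRT5 was at 0 in every library, and their sum was 708 to 752 CPM in DOX-negative and 1910 to 1990 CPM in DOX-positive libraries; its part in the results below was not tested. Of the prostate luminal markers, KLK3 was at 0 and KLK2 and TMPRSS2 were under 1 CPM in every library. Summed markers of leukocytes (5 genes), fibroblasts (5) and endothelium (4) reached at most 1.13, 7.37 and 0.859 CPM. Libraries of 1 group differed from each other by more than sampling noise. Since no label says that the triplicate cultures were grown on separate days, p-values reflect only how much these cultures varied, which may be technical. In bulk RNA, fewer cells expressing a gene and less of its RNA per cell cannot be told apart.

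In DOX-positive cells 6 of the 10 genes were lower, 2 were higher and 2 did not pass the test. PARP14, PARP10, PARP9, PARP11, DTX3L and ZC3HAV1 fell, from 2.15-fold for PARP14 to 1.13-fold for ZC3HAV1. TIPARP rose 1.53-fold and PARP1 rose 1.42-fold, while PARP12 and PARP8 had log2 fold changes of 0.00 and -0.02. The 8 changed genes stand against 56.5% of all genes tested that changed at an adjusted p under 0.05, with 28.9% lower and 27.6% higher. Among the 9936 tested genes with at least the mean CPM of PARP11, the lowest of the 10, the share was 79.5%, with 29.2% lower and 50.4% higher. A count of 8 in 10 is thus near the background for genes of this abundance. The median log2 fold change was -0.20 over the 10 genes and -0.04 over all genes tested. Groups did not overlap for 8 of the 10 genes, beside 62.4% of all genes tested.

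**Figure D1:**
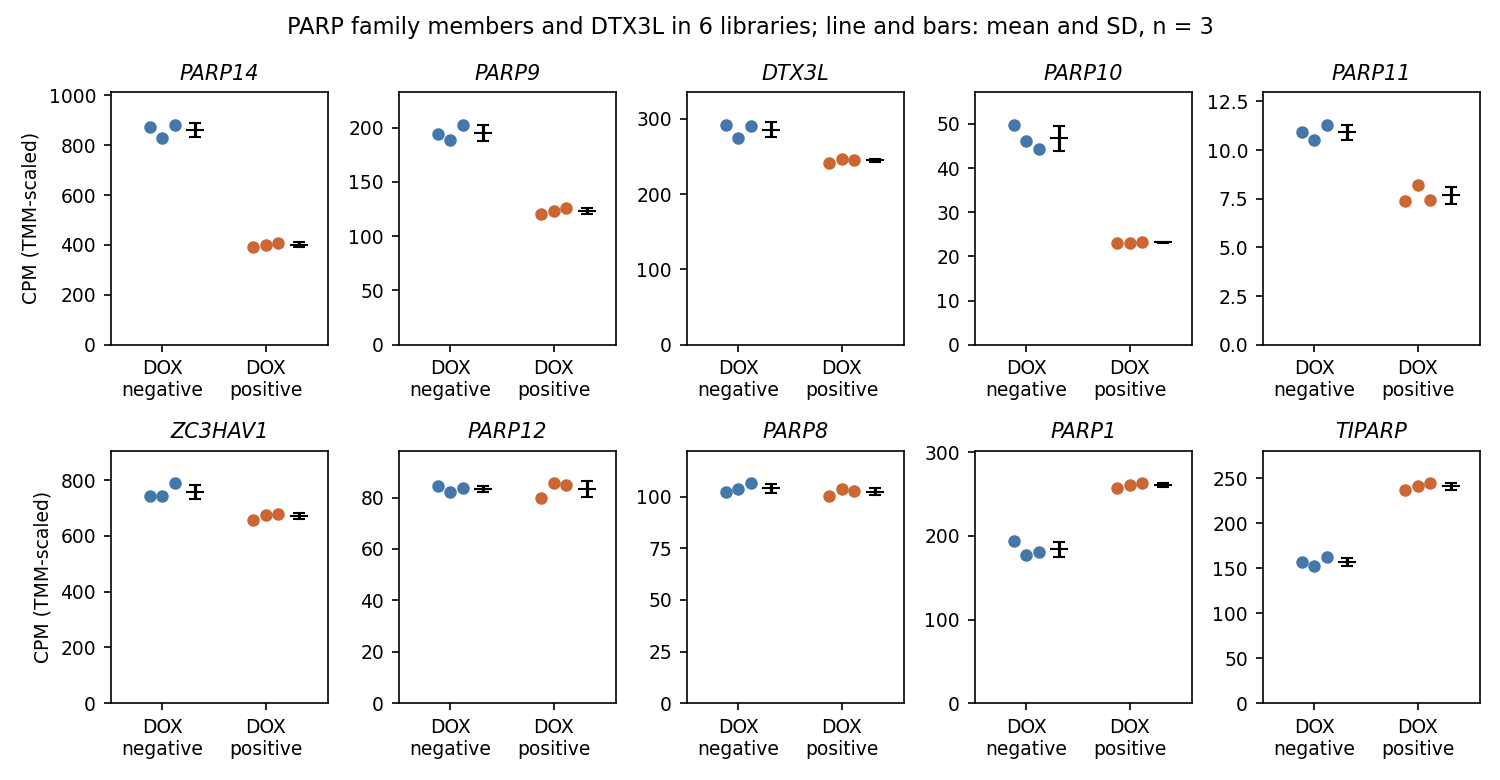
Each panel plots 1 gene's level in CPM (linear axis from 0) in the 3 DOX-negative (blue) and 3 DOX-positive (orange) libraries, with the mean and SD (n = 3) in black beside the points. PARP14 and PARP10 show the widest gaps, TIPARP and PARP1 are higher in every DOX-positive library, and the groups overlap for PARP12 and PARP8.

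PARP9, DTX3L and PARP14 lie together on chromosome 3. PARP9 occupies 122527924 to 122564577 on the minus strand and DTX3L 122564238 to 122575203 on the plus strand (GENCODE 29, GRCh38). The genes run in opposite directions and overlap by 340 bases at their 5′ ends, so that the annotated start of each lies inside the other. PARP14 lies at 122680618 to 122730840 on the plus strand, 105 kb beyond the end of DTX3L. Because these genes lie together, their RefSeq promoter windows (GRCh38.p14) were searched on both strands for 2 motifs. A window ran from 250 bases before to 50 bases after a start. The windows of the other genes among the 10 were searched in the same way. The core of the interferon-stimulated response element was taken as GAAA, any 2 bases and a second GAAA, and TTCNNNGAA is the gamma-activated site. The first motif was in the bases before the start for 3.02% of 35116 windows and for 3.71% of 27305 genes, and the second for 6.57% of windows and 8.09% of genes. In the whole window of 300 bases the first motif was in 3.57% of windows and 4.38% of genes. The second was there in 7.66% of windows and 9.38% of genes. Of the 10 genes 9 had an entry, with 14 windows in total, PARP10 being the exception. The 30 bases around each match are shown 5′ to 3′ on the strand of the gene named, with the motifs in capitals, because they show which sites these genes share.
PARP9: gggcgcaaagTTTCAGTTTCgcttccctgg
DTX3L: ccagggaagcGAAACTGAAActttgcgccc
PARP14: gagttTTCCAGGAAacGAAAGCGAAAgagt
PARP12: ccggggccgcTTTCGGTTTCgtttcccgcc
ZC3HAV1: gggtctgctctTTCCGGGAAtgggtggggt

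The first 2 lines are 1 stretch read on opposite strands, chr3:122564322-122564351. Its response element core begins 41 bases before a PARP9 start and 6 bases before the DTX3L start and runs past the latter, so that it is counted for DTX3L only in the whole window. In the annotation it lies in the first exon and 5′ UTR of DTX3L and inside the PARP9 gene. In PARP14 (chr3:122680794-122680823) both motifs stand side by side without overlap, beginning 40 and 29 bases before the RefSeq start, in a stretch that GENCODE places in the 5′ UTR of a longer transcript. PARP12 (chr7:140062942-140062971, also annotated as 5′ UTR) has the response element core, beginning 10 bases before its start. ZC3HAV1 (chr7:139109806-139109835) has TTCNNNGAA 104 bases before its start, outside the exons of the 10 genes. Neither motif was in the windows of PARP11, PARP8, PARP1 or TIPARP. These matches are descriptions of letters in a window, and PARP12, which has one, did not pass the test under TMM scaling.

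PARP14, a large mono-ADP-ribosyltransferase with macrodomains that bind ADP-ribose, read 874.9, 829.0 and 881.3 CPM in DOX-negative and 389.9, 401.7 and 409.6 CPM in DOX-positive libraries. Every DOX-positive library was below every DOX-negative one. The mean went from 862 ± 28.5 to 400.4 ± 9.93 CPM (SD, n = 3 each), or -1.11 on the log2 scale (SE 0.03, edgeR adjusted p = 4.05e-14). Among all genes tested 8.38% had a lower fold change.

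PARP9, a macrodomain protein that works in a complex with DTX3L, read 194.6, 188.4 and 202.6 CPM in DOX-negative and 120.9, 123.2 and 126.0 CPM in DOX-positive libraries. Again the groups did not overlap. The log2 fold change was -0.66 (SE 0.04, edgeR adjusted p = 9.35e-11), with 18.5% of genes lower.

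DTX3L, the ubiquitin ligase of the pair, read 291.9, 274.1 and 290.1 CPM in DOX-negative and 241.9, 246.2 and 246.0 CPM in DOX-positive libraries. The groups were separate but closer than for PARP9. Its log2 fold change was -0.22 (SE 0.03, edgeR adjusted p = 2.46e-05), and 38.5% of genes had a lower one.

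The partners did not fall by the same amount. Within each library, where scaling between libraries plays no part, DTX3L had 2.32, 2.25 and 2.22 reads per kb for each read per kb of PARP9 in DOX-negative cells. In DOX-positive cells the ratio was 3.10, 3.10 and 3.02. In reads not divided by length the mean ratio was 1.46 in DOX-negative and 1.98 in DOX-positive cells, which leaves the fold between groups unchanged. All 3 DOX-positive ratios lay above all 3 DOX-negative ratios, a 1.36-fold rise (0.44 on the log2 scale) with p = 0.10 by a two-sided exact permutation test, the smallest p that 3 against 3 libraries allow. The ratio of PARP14 to DTX3L went the other way, from 1.68, 1.70 and 1.71 to 0.905, 0.916 and 0.935 on the same scale, and was not tested. PARP9 and DTX3L share 217 exonic bases on opposite strands. The libraries were made with a stranded kit, but the strand setting of the counting is not given in the sources used here, so reads from those bases could have been lost or counted for either gene.

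Most listed genes on either side moved the other way. Of 9 listed neighbours on chromosome 3, 7 were tested, of which 6 rose and 1 fell (median 0.37 on the log2 scale). Over all genes tested 27.6% rose and 28.9% fell, and among those at least as abundant as PARP11 50.4% rose and 29.2% fell. CSTA, among the neighbours that rose, had only 2 to 14 reads per library. KPNA1, an importin next to PARP9, went from 54.4 ± 1.36 to 70.2 ± 0.956 CPM (log2 fold change 0.37), and FAM162A, a mitochondrial protein gene, from 26.6 ± 1.20 to 46.3 ± 1.81 CPM (0.80). WDR5B was the neighbour that fell, from 12.3 ± 0.378 to 7.87 ± 0.432 CPM (-0.64). PARP15, a family member between DTX3L and PARP14, had 0 to 7 reads per library and was not tested.

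**Figure D2:**
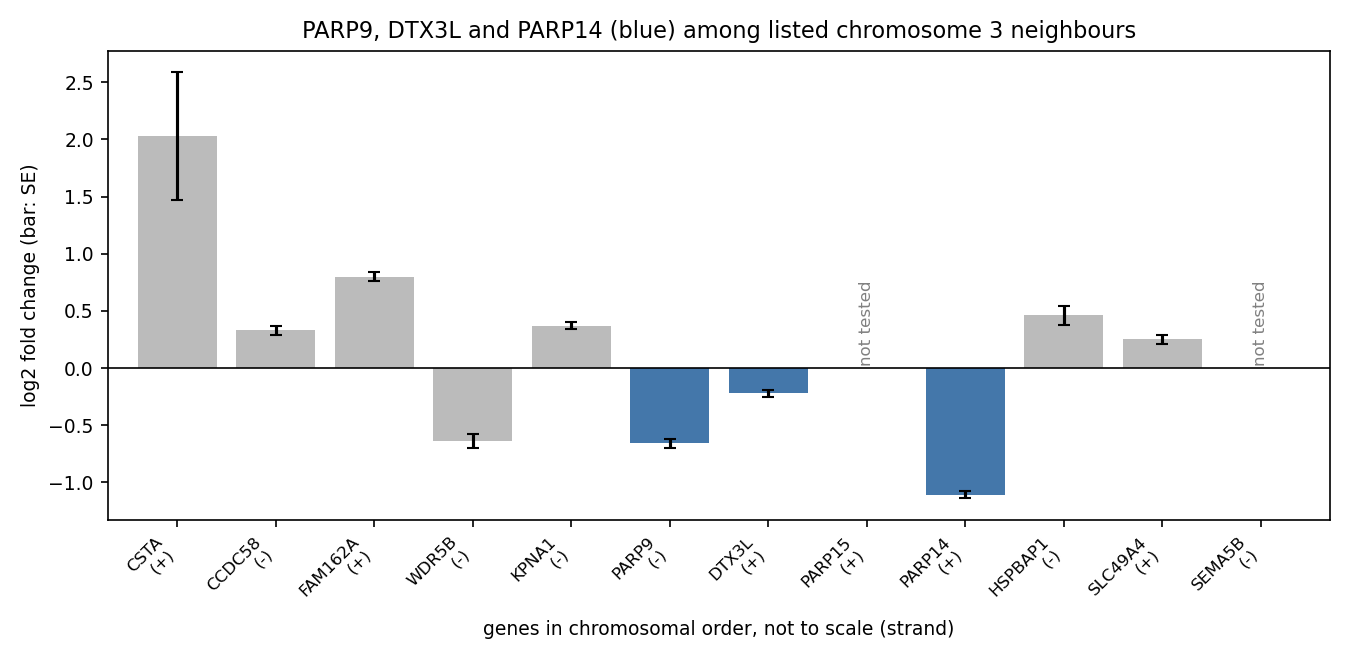
Bars give the log2 fold change (DOX-positive over DOX-negative, error bar SE) of listed genes in their order along chromosome 3, with the strand below each name and distances not to scale. PARP9 (-0.66), DTX3L (-0.22) and PARP14 (-1.11), in blue, point down between neighbours that, apart from WDR5B, point up; the bar of CSTA rests on 2 to 14 reads per library, and PARP15 and SEMA5B were not tested.

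Among the other mono-ADP-ribosyltransferases PARP10, an enzyme with RNA recognition and ubiquitin interaction motifs, fell most. It read 49.78, 46.20 and 44.29 CPM in DOX-negative and 23.05, 23.08 and 23.33 CPM in DOX-positive libraries, with no overlap. The log2 fold change was -1.01 (SE 0.04, edgeR adjusted p = 3.75e-12), a 2.02-fold fall that 9.94% of genes exceeded. PARP10 (chromosome 8, 143977153 to 144012772, minus strand) shares 324 of 6033 exonic bases with GRINA on the opposite strand. GRINA, singled out after its values were seen, went from 87.7 to 84.9 CPM and did not pass (log2 fold change -0.05, edgeR adjusted p = 0.264).

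PARP11, a mono-ADP-ribosyltransferase with a WWE domain (chromosome 12, 3791047 to 3873448, minus strand), was the least abundant of the 10 genes. It read 10.93, 10.51 and 11.29 CPM in DOX-negative and 7.408, 8.182 and 7.448 CPM in DOX-positive libraries. The groups did not overlap, and the log2 fold change was -0.50 (SE 0.07, edgeR adjusted p = 4.93e-06). The pseudogene OTUD4P1 lies on the opposite strand within PARP11 but shares 0 exonic bases with it.

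PARP12, a zinc finger family member (chromosome 7, 140023744 to 140063721, minus strand), is also known as interferon-inducible. It read 84.46, 82.20 and 83.57 CPM in DOX-negative and 79.79, 85.47 and 85.02 CPM in DOX-positive libraries, so the lowest and the highest value were both DOX-positive. Its log2 fold change was 0.00 (SE 0.03, edgeR adjusted p = 0.990), with a 95% interval of -0.07 to 0.07 by limma-voom under the same scaling. With library size alone, a scaling that moves all genes by a median of -0.14 on the log2 scale, PARP12 passed as lower (-0.14, edgeR adjusted p = 0.00119). Its adjusted p over the other alternatives was 0.111 to 1.

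PARP8, a family member of less known function (chromosome 5, 50665899 to 50846522, plus strand), read 102.1, 103.8 and 106.4 CPM in DOX-negative and 100.5, 103.9 and 102.7 CPM in DOX-positive libraries. The groups overlapped. The log2 fold change was -0.02 (SE 0.03, edgeR adjusted p = 0.545), with a 95% interval of -0.09 to 0.04 by limma-voom. It passed as lower with upper-quartile scaling (-0.08, edgeR adjusted p = 0.0248) and with library size alone (-0.17, 0.000161), and its adjusted p across alternatives ran from 0.000161 to 0.958.

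ZC3HAV1, the zinc finger antiviral protein that binds CpG-rich RNA (chromosome 7, 139043520 to 139109719, minus strand), read 743.7, 742.3 and 788.1 CPM in DOX-negative and 658.5, 676.6 and 677.4 CPM in DOX-positive libraries. The groups were separate, by a small margin. The log2 fold change was -0.18 (SE 0.03, edgeR adjusted p = 7.65e-05), and 41.1% of genes had a lower one. Of 8 cofactors and relatives of ZC3HAV1, 5 fell, 0 rose and 3 did not pass by edgeR, with 8 lower with library size alone and 3 lower without DOX-negative replicate 1. This count and those of the lists below stand beside 28.9% of all genes tested that fell and 27.6% that rose. Among genes at least as abundant as PARP11 the shares were 29.2% and 50.4%. TRIM25, the ubiquitin ligase that ZC3HAV1 needs for its antiviral activity, fell from 251 ± 5.79 to 173 ± 1.11 CPM (log2 fold change -0.54). OAS3, a sensor of double-stranded RNA, fell from 476 ± 9.84 to 253 ± 6.78 CPM (-0.91), and the paralog ZC3HAV1L from 21.8 ± 0.890 to 17.6 ± 0.596 CPM (-0.32).

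PARP1, the main producer of poly(ADP-ribose) at DNA breaks (chromosome 1, 226360691 to 226408079, minus strand), read 193.4, 177.0 and 181.2 CPM in DOX-negative and 257.7, 260.9 and 262.7 CPM in DOX-positive libraries. All DOX-positive libraries were higher. The log2 fold change was 0.50 (SE 0.04, edgeR adjusted p = 3.76e-09), and 86.5% of genes had a lower one. Of 9 genes of its cofactor and single-strand break repair list, 5 rose, 3 fell and 1 missed the threshold (median log2 fold change 0.24). Those counts are near the 50.4% that rose and 29.2% that fell among genes at least as abundant as PARP11. PARP2, the second enzyme that responds to DNA breaks, rose from 59.6 ± 1.19 to 71.9 ± 1.97 CPM (0.27). APTX, which repairs abortive ligation products, rose from 28.3 ± 0.563 to 37.3 ± 0.786 CPM (0.40), and LIG3, the ligase of the pathway, fell from 56.0 ± 0.250 to 38.0 ± 1.10 CPM (-0.56).

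TIPARP, a mono-ADP-ribosyltransferase and target gene of the aryl hydrocarbon receptor AHR (chromosome 3, 156673235 to 156706770, plus strand), read 156.7, 152.9 and 162.0 CPM in DOX-negative and 236.8, 241.9 and 244.2 CPM in DOX-positive libraries. It had the largest rise of the 10 genes, with no overlap. The log2 fold change was 0.62 (SE 0.03, edgeR adjusted p = 1.08e-10), above that of 90.2% of genes. The antisense gene TIPARP-AS1, singled out for its overlap, had at most 55 reads in a library, against at least 14832 for TIPARP. Of 7 genes around AHR, 2 rose, 3 fell and 2 missed the threshold (median log2 fold change -0.06). AHR itself rose from 73.6 ± 7.25 to 104 ± 4.92 CPM (0.51), while the AHR targets CYP1B1 and NQO1 fell, from 81.2 ± 3.03 to 70.1 ± 3.68 CPM (-0.21) and from 817 ± 28.0 to 418 ± 9.72 CPM (-0.97).

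**Figure D3:**
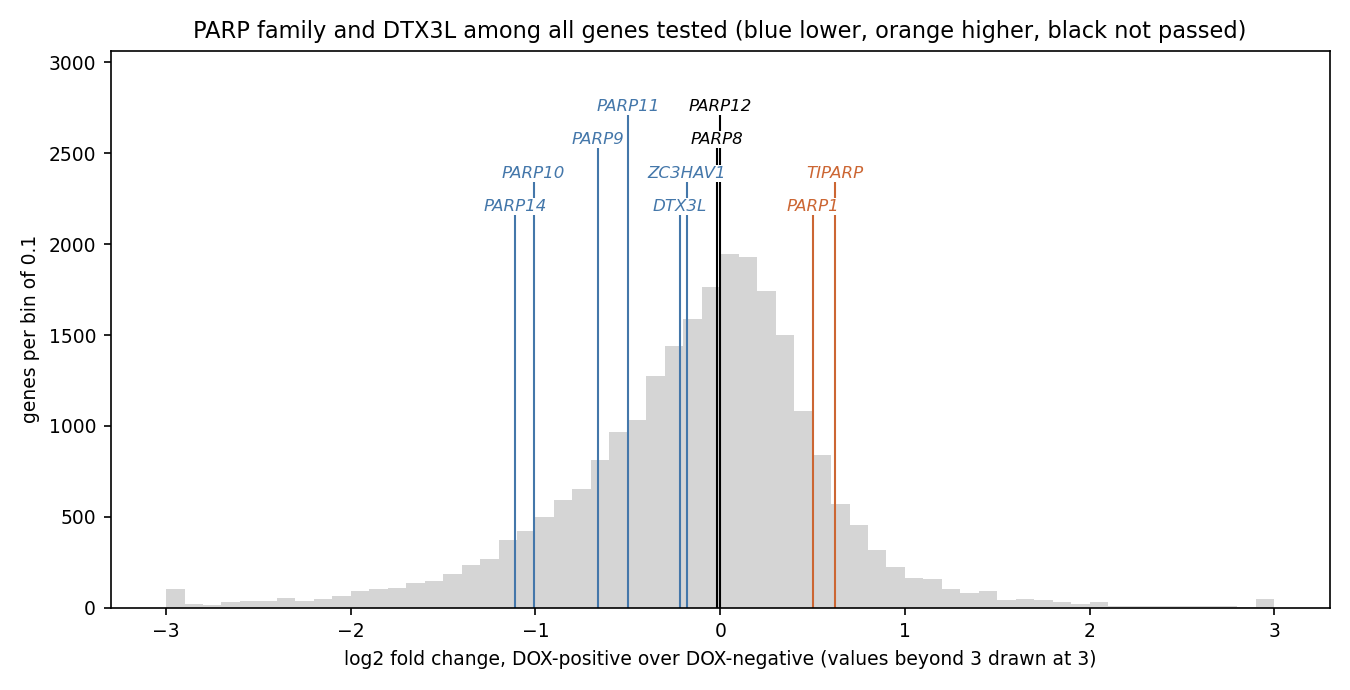
Grey bars count all 24695 genes tested per 0.1 of log2 fold change (DOX-positive over DOX-negative, values beyond 3 drawn at 3), and lines mark the 10 genes. PARP14 and PARP10 lie in the lower tail, with 8.38% and 9.94% of genes below them, TIPARP lies above 90.2% of genes, and PARP12 and PARP8 lie near 0.

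The remaining PARP family genes moved by at most 0.45 on the log2 scale. Of 8, 7 were tested, of which 3 rose, 1 fell and 3 missed the threshold (median 0.06 on the log2 scale). PARP6 rose from 77.6 ± 1.02 to 106 ± 1.84 CPM (0.45), PARP2 by the amount given above, and PARP4, the vault particle enzyme, from 207 ± 2.38 to 244 ± 6.91 CPM (0.24). PARP16, an enzyme of the endoplasmic reticulum membrane, fell from 15.1 ± 0.235 to 13.4 ± 0.249 CPM (-0.17, edgeR adjusted p = 0.00615). The tankyrases TNKS and TNKS2, which build chains on telomere and WNT pathway proteins, had log2 fold changes of 0.02 and 0.06, and PARP3 of -0.04. With library size alone all 7 passed, 3 higher and 4 lower, with TNKS (-0.12), TNKS2 (-0.08) and PARP3 (-0.18) on the lower side. PARP3 also passed as lower with upper-quartile scaling (-0.10, edgeR adjusted p = 0.0161) and when genes needed 1 CPM in 3 libraries (-0.07, edgeR adjusted p = 0.0400), with adjusted p from 0.000148 to 0.978 over the alternatives.

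Per length of gene, the order of levels in the family changed at the top. For PARP9 the deposited length equalled the exonic bases of all its annotated transcripts together (8938). Levels per kb of different genes, and so their order, therefore depend on the annotation, while the change of 1 gene's level between groups does not. In DOX-negative cells ZC3HAV1 (92.0 ± 3.16 CPM per kb) and PARP14 (83.9 ± 2.78) stood far above PARP4 (34.3 ± 0.394), and neighbours from PARP4 through TNKS2 (33.7 ± 1.22) to TIPARP (32.8 ± 0.961) lay within about their SDs of each other. In DOX-positive cells ZC3HAV1 stayed first at 81.4 ± 1.30 CPM per kb, TIPARP was next at 50.2 ± 0.782, and PARP14, at 39.0 ± 0.966, was level with PARP4 (40.4 ± 1.14) within about the SDs. PARP11 was lowest of the 16 genes above the filter in both groups, at 1.76 ± 0.0623 and 1.24 ± 0.0703 CPM per kb. The sum over the 17 genes of the family, DTX3L not included, was 422.5, 410.3 and 430.4 CPM per kb in DOX-negative and 387.8, 394.3 and 400.9 in DOX-positive libraries. As a share of that sum, which does not depend on the scaling between libraries, PARP14 went from 19.9% ± 0.244 to 9.88% ± 0.0854. TIPARP went from 7.78% ± 0.0602 to 12.7% ± 0.0467 and PARP1 from 6.08% ± 0.262 to 9.19% ± 0.0645 (SD, n = 3 each).

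**Figure D4:**
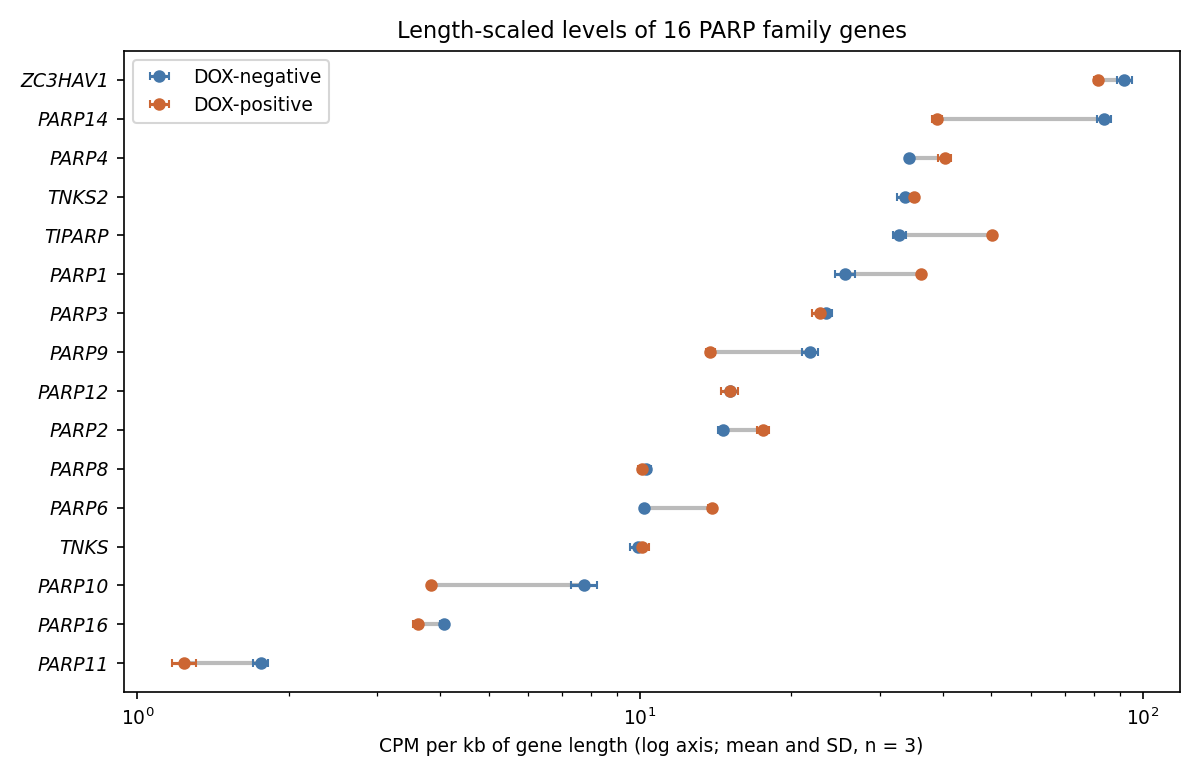
Points give the mean length-scaled level (CPM per kb of deposited gene length, log axis) of 16 PARP family genes in DOX-negative (blue) and DOX-positive (orange) cells, with SD bars (n = 3) and a grey line joining the groups. The line for PARP14 runs from 83.9 to 39.0 and that for TIPARP from 32.8 to 50.2, while ZC3HAV1 stays highest.

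Genes that supply, remove or share partners with ADP-ribosylation went in both directions. Of 13 tested genes of NAD supply and use, 8 fell, 3 rose and 2 missed the threshold (median -0.17 on the log2 scale). The ectoenzyme CD38, which consumes NAD, read 55.06, 48.24 and 55.96 CPM in DOX-negative and 13.84, 13.32 and 14.90 CPM in DOX-positive libraries, the largest fall among these lists' named genes (-1.92, SE 0.06, edgeR adjusted p = 5.02e-14). NNMT, which methylates nicotinamide, fell from 139 ± 7.75 to 73.9 ± 1.42 CPM (-0.91), and NMNAT3, which makes NAD, from 8.04 ± 0.224 to 4.44 ± 0.297 CPM (-0.86).

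Of 11 genes of ADP-ribose removal, 3 fell, 2 rose and 6 missed the threshold (median log2 fold change -0.03). With library size alone 6 fell and 1 rose, and 1 rather than 2 rose with upper-quartile scaling, with the 1 CPM minimum, with the replicate block and without any 1 of the 3 DOX-positive libraries. The hydrolase MACROD1 fell from 5.79 ± 0.508 to 3.20 ± 0.358 CPM (-0.86), the phosphodiesterase ENPP1 from 34.6 ± 0.702 to 21.7 ± 0.422 CPM (-0.67), and NUDT9, an ADP-ribose pyrophosphatase, rose from 13.59, 11.71 and 12.05 to 18.78, 19.51 and 18.69 CPM (0.61). Of the 4 Deltex ligases other than DTX3L, DTX1 and DTX4 fell and DTX2 and DTX3 rose, but 0 were higher and 2 lower with upper-quartile scaling, with library size alone and without DOX-positive replicate 3, and 1 was higher and 1 lower with the 1 CPM minimum and without DOX-negative replicate 3. DTX4 fell from 5.62 ± 0.436 to 1.79 ± 0.414 CPM (-1.65). The rise of DTX2 (0.14, edgeR adjusted p = 0.0102) became -0.01 with library size alone and lost its call without DOX-positive replicate 3 (adjusted p 0.000215 to 0.891 across alternatives). DTX1, under 1 CPM in every library, had -0.69 (edgeR adjusted p = 0.0155) and lost its call without DOX-negative replicate 1, DOX-negative replicate 3 or DOX-positive replicate 2, with adjusted p from 0.00499 to 0.0860 over the alternatives.

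Among the IFN-gamma signalling genes given here, IFNGR1, JAK2, STAT2, IRF1, IRF9 and SOCS1 fell, IFNGR2, JAK1 and STAT3 rose, and SOCS3 did not pass. STAT2, a subunit of the factor that binds the interferon-stimulated response element, read 302.5, 309.7 and 299.2 CPM in DOX-negative and 164.4, 162.7 and 163.1 CPM in DOX-positive libraries (-0.89). IFNGR1, a receptor chain for IFN-gamma, fell from 39.3 ± 1.64 to 17.0 ± 0.233 CPM (-1.21). The tyrosine kinase JAK1 went up from 158.6, 153.8 and 166.1 to 243.0, 251.7 and 250.9 CPM (0.64). Around ZC3HAV1 and PARP12, which lie 914 kb apart on chromosome 7, 7 listed neighbours were tested, of which 4 fell, 2 rose and 1 did not pass; with library size alone both that rose lost their calls. UBN2 fell from 97.7 ± 3.26 to 79.4 ± 2.30 CPM (-0.30), and SLC37A3 went from 49.4 ± 1.45 to 57.3 ± 1.45 CPM (0.22), a call that library size alone ended (0.07, edgeR adjusted p = 0.0599; 6.46e-09 to 0.0599 over the alternatives).

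The genes whose levels over the 6 libraries were most like those of PARP9 were NCOA7, MBTPS2 and DR1, out of 9754 genes with a mean of at least 10 CPM. Likeness was the root mean square difference in log2 CPM, centred on the DOX-negative mean, which was 0.0145, 0.0164 and 0.0167. NCOA7 went from 394 to 252 CPM, a log2 fold change of -0.65. MBTPS2 and DR1 had -0.68 and -0.65, beside -0.66 for PARP9. By its construction the measure depends mostly on the shift between the groups. It picks genes with a fold change near that of PARP9 and does not show that they vary together within a group.

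**Figure D5:**
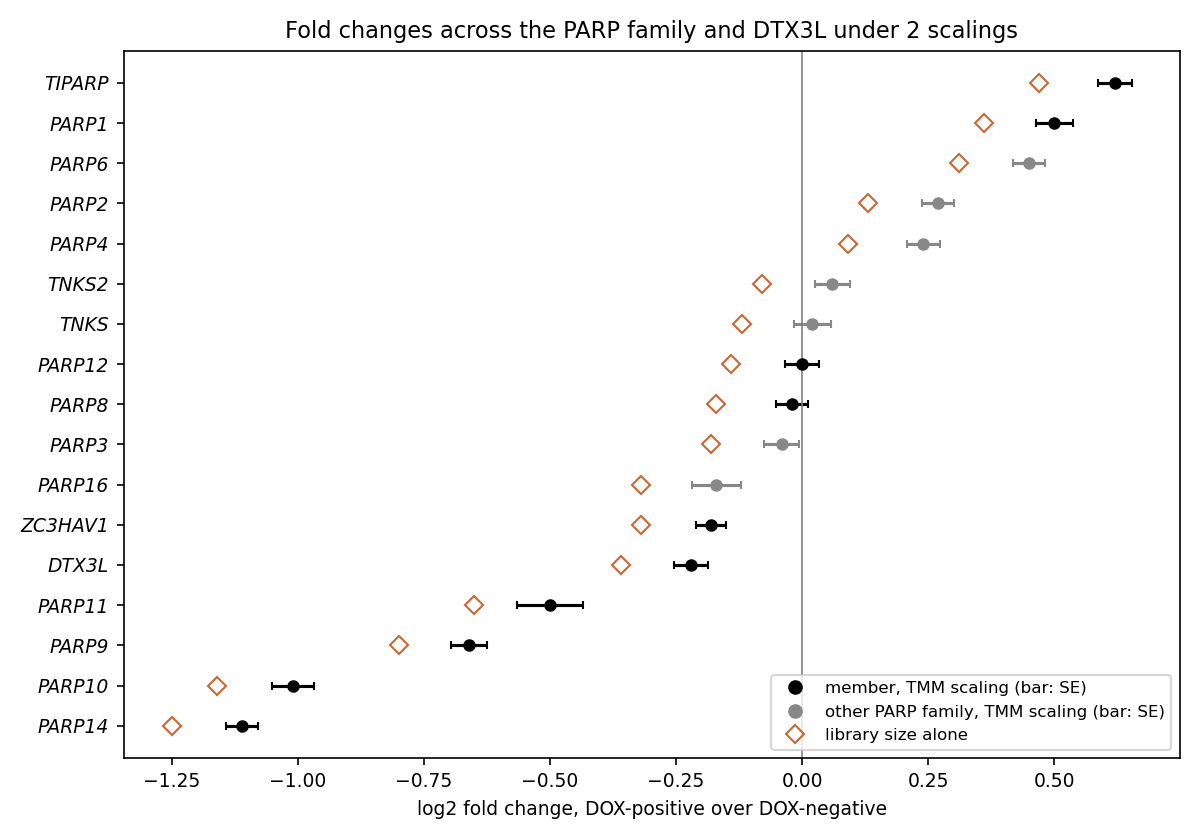
Filled points give log2 fold changes (DOX-positive over DOX-negative, bar SE) under TMM scaling for the 10 genes (black) and 7 other PARP family genes (grey), and open diamonds the same with library size alone. Every diamond lies to the left of its point, and PARP12, TNKS and TNKS2 move from 0 or above to below 0.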

How the data were processed

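The authors deposited raw counts, 1 whole number of reads per gene and library, with a gene length in bases. Libraries were made from Trizol-extracted RNA with a stranded mRNA kit, per the labels' protocols. Per the submitters' processing notes the tools included STAR 2.7.9a and the build was GRCh38.p7; how reads were counted, on which annotation and with which strand setting, is not given in the sources used here. Groups and replicate numbers came from sample titles.

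Counts were fitted in R 4.3.3 with edgeR 4.0.16 (filterByExpr with a minimum count of 10 and total of 15, TMM, quasi-likelihood test, group as the only term), adjusted by Benjamini-Hochberg with a threshold of 0.05 and tested on simulated data. SEs are the absolute log2 fold change over the square root of F. A count of 3 reads, the limit for a count of 0, was 0.0204 to 0.0328 CPM, covering counting error only. Alternatives were 3 scalings, 2 filters, DESeq2 1.42.0, limma-voom (limma 3.58.1), the replicate block and each library left out. Positions came from GENCODE 29 (GRCh38), promoters from RefSeq (GRCh38.p14). Figures used matplotlib 3.10.9.

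The 10 genes and 10 gene lists were chosen with earlier results of these data known. Named genes were the 10, MUC1, the other PARP genes, up to 3 per list with the smallest p-values and the 3 most like PARP9. In the chromosome 7 list 7 of 8 symbols were matched. Some genes of the lists are not reported here.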

Additional observations from a re-analysis of the deposited data

How the results depend on the processing

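Over 14 alternatives PARP9, DTX3L, PARP10, PARP11, ZC3HAV1, PARP14, PARP1 and TIPARP kept their direction and passed each time, within -0.80 to -0.61, -0.36 to -0.18, -1.16 to -0.94, -0.65 to -0.46, -0.32 to -0.13, -1.25 to -1.07, 0.36 to 0.56 and 0.47 to 0.66 on the log2 scale. PARP12, at 0.00, became -0.06 with upper-quartile scaling, -0.14 with library size alone and -0.04 when genes needed 1 CPM in 3 libraries, and was -0.01 to 0.04 with a library left out. PARP8, at -0.02, became 0.00 with DESeq2 size factors and with the DESeq2 Wald test, -0.08 with upper-quartile scaling and -0.17 with library size alone, and was -0.03 to 0.01 with a library left out. The whole-table count of changed genes was 12807 to 14480, and library size alone gave 4689 higher and 9579 lower. The DTX3L to PARP9 ratio rose by 0.43 to 0.46 with a library left out. TNKS became -0.04 with upper-quartile scaling, -0.12 with library size alone and -0.01 with the 1 CPM minimum, TNKS2 0.00 and -0.08 with the first 2 of these, DTX2 -0.01 with library size alone, and PARP3, at -0.04, passed as lower with all 3 (-0.10, -0.18 and -0.07) and was 0.00 without DOX-negative replicate 1. The replicate number as a block gave 13503 changed genes and 8 of the 10 genes; same-numbered libraries deviated with correlations of -0.067 to 0.0099, and the labels do not say that numbers pair cultures. The cause of these changes was not tested, apart from the scalings, which shift all genes by construction.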
